A study of Mus musculus with 20 samples.

Results

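The clustered replication-dependent histone genes encode the H1, H2A, H2B, H3 and H4 proteins that are made in bulk when a cell copies its DNA. They were taken from the gene count table by symbol (Hist1h, Hist2h, Hist3h or Hist4h) and then chosen by their measured level, as the genes with 10 or more counts over all 20 libraries. Of 70 genes with such a symbol, 42 qualified, 16 had 1 to 9 counts and 12 had no count in any library. Of the 42, 40 were annotated as protein-coding and 2 as processed pseudogenes. These were Hist3h2bb-ps and Hist1h2al, which are counted here with the H2B and H2A members. The table listed 55421 genes in all, of which 22867 reached 10 counts and were tested. The total count chose the members, so levels are given as a description. The total covers the libraries that are compared, so a low member could enter through the guide in which it was high. In the libraries of each guide alone, 28 members reached 10 counts with both guides, 7 with HIRA only, 4 with Rosa26 only and 3 with neither. For the 14 that did not reach it with both, group differences are given as values that the choice could have shaped. The members with the fewest counts and the genes just below the limit were Hist1h4f with 10 counts inside it and Hist1h3i and Hist1h2bl with 8 each outside it.

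RNA-seq was done on livers of wildtype C57BL/6 mice, labelled female, that received AAV8 by retro-orbital injection at 6 months of age. All mice therefore carried the virus, which expressed Staphylococcus aureus Cas9 from the hepatocyte promoter Tbg with a guide RNA, so other liver cells were not the target. The guide cut Hira in the HIRA groups and the Rosa26 locus, a neutral site, in the control groups. Livers were taken 3 weeks or 6 months after injection, with 5 mice in each of the 4 groups (Rosa26 3 weeks, HIRA 3 weeks, Rosa26 6 months, HIRA 6 months).

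HIRA is a chaperone that places the H3.3 variant into chromatin outside of DNA replication, whereas the clustered genes supply histones for replication, which is rare in resting hepatocytes. Messages of the clustered genes normally end in a short stem-loop instead of a poly(A) tail. SLBP binds this stem-loop, and NPAT drives transcription of the clusters in S phase. The libraries were made from poly(A)-selected RNA, so the counts show those clustered histone messages that carried a poly(A) tail or passed the selection without it. Clustered genes are also close copies of each other, and how reads that fit several copies were counted is not stated.

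The libraries held between 19916430 and 24079736 counts. The library of HIRA 6 months replicate 5 carried male markers against its label, with the Y-linked Eif2s3y at 55.6 CPM (counts scaled to a common library size with TMM factors) and the X-inactivation RNA Xist at 0.46 CPM, where Xist was at least 291 CPM in the other 19 libraries. Hira was 6.94 ± 1.01 CPM (mean ± SD, n = 5) in Rosa26 and 4.96 ± 0.85 CPM in HIRA livers at 3 weeks, a log2 fold change of -0.48 that missed the threshold (adjusted p = 0.197, edgeR). At 6 months it was 5.98 ± 0.90 CPM and 5.58 ± 0.57 CPM (log2 fold change -0.10, adjusted p = 0.794). Counts over a gene do not show small deletions, and cells other than hepatocytes express Hira as well. In bulk liver, fewer cells of a type and less RNA per cell cannot be told apart. The hepatocyte marker Alb was abundant in every library, and the 8 hepatocyte markers summed to between 86547 and 166363 CPM.

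To see how much of the stem-loop end each member keeps in its annotated message, the GENCODE M21 transcripts (GRCm38) were searched for a perfect 6-base-pair stem with a 4-base loop that starts with GG and ends with CC and has T and A at the closing pair. A match was present in 36 of 42 members and in 405 of 21834 other protein-coding genes (1.85%). The sequences shown are those of the 3 H2B members whose values differed most between the guides at 3 weeks, and of 3 abundant members for comparison. Capitals mark the stem-loop, and each line reads 5′ to 3′ on the message.

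Hist1h2bb (chr13:23747196-23747225, + strand): acccaaaGGCTCTTTTAAGAGCCacccaca
Hist1h2bm (chr13:21722499-21722528, + strand): acacaaaGGCTCTTTTCAGAGCCactaagc
Hist1h2bf (chr13:23573758-23573787, - strand): acccaaaGGCTCTTTTCAGAGCCacctacc
Hist1h1c (chr13:23739505-23739534, + strand): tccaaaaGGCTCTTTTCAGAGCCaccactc
Hist1h4h (chr13:23531451-23531480, + strand): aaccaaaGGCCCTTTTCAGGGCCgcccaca
Hist1h4i (chr13:22040959-22040988, - strand): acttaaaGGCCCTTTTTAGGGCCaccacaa

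The form of Hist1h2bm, Hist1h2bf and Hist1h1c was shared by 19 members, all of them H1, H2A, H2B or H3 genes. The form of Hist1h2bb, which differs in the loop, was shared by 5 members. The form of Hist1h4h was carried by 6 members, all H4 genes. What differed more between members was the annotated message after the stem-loop. It ran for 23 bases in Hist1h2bb, 29 in Hist1h2bf and 46 in Hist1h2bm, but for 330 bases in Hist1h4i, 840 in Hist1h1c and 1643 in Hist3h2a. In all, 15 members had an annotated end within 100 bases of the stem-loop and 21 had a longer one, and an AATAAA or ATTAAA poly(A) signal lay in the last 50 bases of 1 of the 15 and 10 of the 21. The most abundant member, Hist1h2bc, was annotated with 2 exons and no complete stem-loop.

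Promoters of H2B genes are known to carry an octamer bound by OCT1 beside CCAAT and TATA elements, so the 250 bases before the start of the same H2B members were read from RefSeq (GRCm38.p6). Capitals mark ATTTGCAT (octamer), CCAAT and TATAAA on either strand. None of the marked elements overlap each other in these sequences.

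Hist1h2bb promoter (chr13:23746484-23746733, + strand): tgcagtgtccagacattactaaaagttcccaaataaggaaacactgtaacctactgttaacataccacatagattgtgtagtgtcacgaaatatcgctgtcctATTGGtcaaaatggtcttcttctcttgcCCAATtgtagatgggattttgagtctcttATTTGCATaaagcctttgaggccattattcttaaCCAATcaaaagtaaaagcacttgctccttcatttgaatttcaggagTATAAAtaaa
Hist1h2bm promoter (chr13:21721794-21722043, + strand): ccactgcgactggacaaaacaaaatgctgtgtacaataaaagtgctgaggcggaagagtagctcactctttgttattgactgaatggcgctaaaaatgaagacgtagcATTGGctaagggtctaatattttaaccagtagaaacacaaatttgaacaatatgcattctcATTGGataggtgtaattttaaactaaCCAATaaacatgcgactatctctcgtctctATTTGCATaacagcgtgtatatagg
Hist1h2bf promoter (chr13:23574208-23574457, - strand): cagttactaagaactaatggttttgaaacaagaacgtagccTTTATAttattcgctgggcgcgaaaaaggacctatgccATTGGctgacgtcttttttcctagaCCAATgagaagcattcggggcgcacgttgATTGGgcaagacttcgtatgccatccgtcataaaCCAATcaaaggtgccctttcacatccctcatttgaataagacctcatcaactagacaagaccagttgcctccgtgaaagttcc

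A promoter was found for 35 of 42 members. Over the whole stretch listed there (250 bases before and 50 after the start), the octamer was present in 5 of 6 H2A and 4 of 9 H2B promoters and in none of the 4 H1, 5 H3 and 11 H4 promoters, against 1.7% of all 32851 promoters. CCAAT was present in 27 of the 35 (77.1%, against 37.4% of all promoters) and TATAAA in 22 (62.9%, against 13.6%). The stretches of Hist1h2ae and Hist1h2bg overlap, as do those of Hist1h2ad and Hist1h2bf, so 1 match can count for both genes. The TATAAA match shown for Hist1h2bf lies on the opposite strand. These are matches of letters and were not tested as binding sites.

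Most members were close to the limit of detection, and few carried nearly all counts. Together the 42 members took 70265 counts, 0.0161% of all counts. Hist1h2bc, an H2B gene, held 64.0% of them and Hist1h1c, a linker histone gene, another 27.2%, so that both held 91.3%. Fewer than 100 counts in total were found for 31 members, and 12 members had a count in every library. By class, 4 of 6 H1, 7 of 20 H2A, 12 of 19 H2B, 7 of 12 H3 and 12 of 13 H4 genes qualified. On chromosome 13 lay 34 of the members, with 4 on chromosome 3, 3 on chromosome 11 and 1 on chromosome 6.

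Levels between genes were compared per length, as CPM per kilobase of exon over all 20 livers. Hist1h2bc was at 89.8 ± 16.7 (mean ± SD, n = 20) and Hist1h1c at 27.9 ± 10.6. The replacement genes H3f3a (20.5 ± 2.9) and H3f3b (56.3 ± 7.2), which encode H3.3 from polyadenylated messages, both lay below Hist1h2bc. Hist1h4i followed at 2.92 ± 0.48, about an order of magnitude below. Hist1h4h (1.82 ± 0.76) and Hist2h2be (1.71 ± 0.35) did not differ beyond their spread. Hist3h2a was at 0.902 ± 0.191, and below it Hist1h2bb (0.668 ± 0.540), Hist2h3c2 (0.517 ± 0.249), Hist1h4k (0.485 ± 0.392) and Hist1h2bg (0.359 ± 0.165) overlapped each other. The mean of Hist1h2bb pools guides that differ: it was 0.223 and 0.316 in Rosa26 livers at 3 weeks and 6 months, below Hist3h2a (0.873 and 1.02), but 1.01 and 1.12 in HIRA livers, where Hist3h2a was at 0.908 and 0.811. The other 32 members ranged from 0.0221 (Hist4h4) to 0.268 (Hist1h2ae). Summed over a class, H2B stood highest (93.4), then H1 (28.1), H4 (6.30), H2A (1.65) and H3 (0.925).

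**Figure D1:**
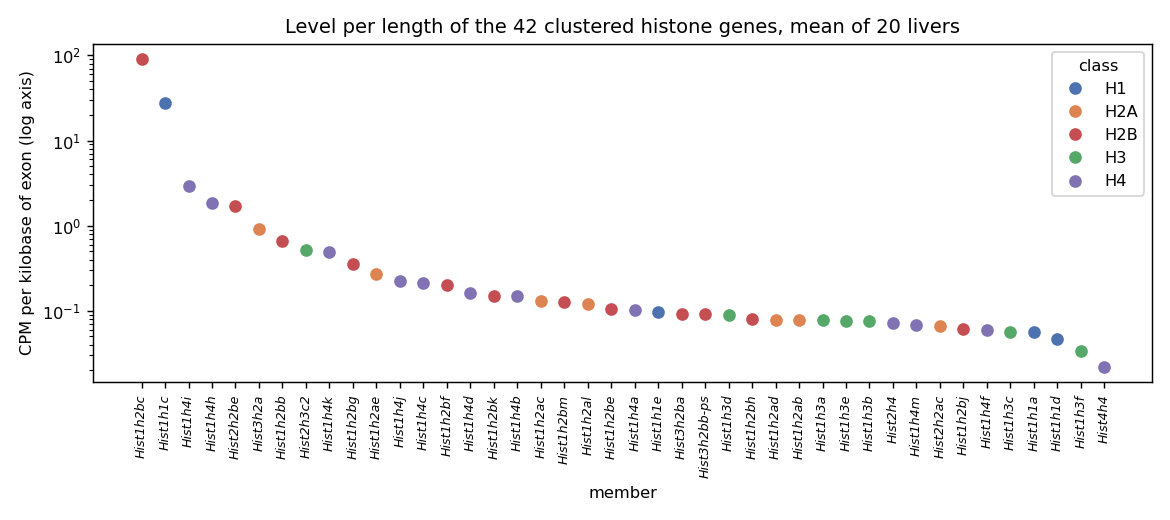
Each point is a member, ordered by its mean level over 20 livers in CPM per kilobase of exon (log axis) and coloured by histone class. Hist1h2bc and Hist1h1c stand at 89.8 and 27.9, and all other members lie below 3.

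Many clustered genes share sequence with each other. Counted as stretches of 50 bases, the median share of a gene's transcript that also occurred in another gene's transcript was 40.3% over members and 88.2% over genes under 10 counts. It was 93.8% over the 12 genes with no count. Of Hist1h2bb, 40.1% was shared, mostly with Hist1h2bk. Of Hist1h2bf and Hist1h2bm, 65.8% and 43.8% were shared, while Hist1h1c shared 8.5% and Hist2h2be none. Reads in shared stretches may have been dropped or placed on either copy, so values of single members with a high share are uncertain.

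Annotated end and level did not separate cleanly. Members that end within 100 bases of the stem-loop had a median of 0.0777 CPM per kilobase, against 0.105 for those with a longer end. The length used as divisor includes that end, and the median total counts were 20 and 80. Hist1h1c, Hist1h4i and Hist3h2a, all with long ends, were the 3 highest of the second set, but Hist1h4h reached 1.82 with 46 bases after its stem-loop, and Hist1h1d, whose 4884 bases after the stem-loop were the most, was at 0.0471.

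**Figure D2:**
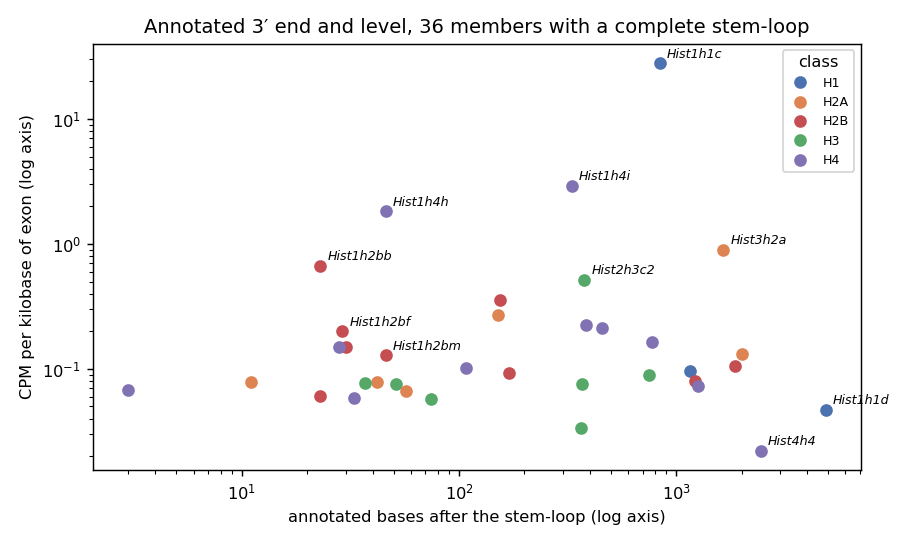
Points are the 36 members with a complete stem-loop, by the number of annotated bases after it (log axis) and by mean level over 20 livers in CPM per kilobase of exon (log axis), coloured by class. Hist1h1c stands highest at 27.9 with 840 bases after the stem-loop, and Hist1h2bb lies at 0.668 with 23.

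Next, the HIRA guide was compared with the Rosa26 guide at each time, to see whether clustered histone messages move when the replication-independent chaperone is targeted. For the most abundant members no difference between the guides passed the test. Hist1h2bc ranged from 95.3 to 133 CPM (median 101) in Rosa26 and from 86.0 to 132 CPM (median 104) in HIRA livers at 3 weeks, and from 84.8 to 125 CPM (median 88.2) and 79.7 to 145 CPM (median 97.8) at 6 months. Its log2 fold changes were -0.03 ± 0.16 (SE) and 0.04 ± 0.16. Hist1h1c had a median of 36.1 CPM in Rosa26 and 29.4 CPM in HIRA livers at 3 weeks and of 42.4 and 48.1 CPM at 6 months, with log2 fold changes of -0.44 ± 0.25 and 0.05 ± 0.25. Without Rosa26 3 weeks replicate 5, the highest control liver, the value at 3 weeks was -0.22. The groups overlapped for both genes at both times.

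No member passed an adjusted p of 0.05 in edgeR at 3 weeks or at 6 months, where 0.197% and 1.31% of all genes tested did, and so none passed the added limit of an absolute log2 fold change above 1 (0.114% and 0.332% of all genes). DESeq2 and limma-voom called none either, with DESeq2 giving an adjusted p to 8 of the 42 members. At an unadjusted p under 0.05, 8 of 42 members stood out at 3 weeks (7 higher and 1 lower in HIRA livers, 19.0% against 8.87% of all genes, where 3 of the 8 reached 10 counts with 1 guide only) and 2 at 6 months, both higher (4.76% against 15.5%). Over the 28 members that reached 10 counts with both guides, the counts were 5 (17.9%) and 1 (3.57%).

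Hist1h2bb, an H2B gene at chr13:23746734-23747241 with a single exon, had the smallest p of the members at both times. At 3 weeks it had 1, 2, 3, 2 and 4 counts in the Rosa26 livers and 13, 10, 15, 8 and 9 counts in the HIRA livers. All 5 HIRA livers were above all 5 controls. At 6 months it had 7, 2, 1, 4 and 4 counts in Rosa26 and 15, 20, 0, 14 and 13 counts in HIRA livers. Here 4 HIRA livers were above all controls and replicate 3 had no count, which allows up to 3 counts. The means were 0.113 ± 0.051 and 0.515 ± 0.148 CPM at 3 weeks and 0.161 ± 0.098 and 0.569 ± 0.340 CPM at 6 months (SD, n = 5). The log2 fold change was 2.12 ± 0.61 (SE) at 3 weeks (unadjusted p = 0.00234, adjusted p = 0.199, edgeR) and 1.77 ± 0.57 at 6 months (unadjusted p = 0.00532, adjusted p = 0.128, edgeR).

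With the guide effect averaged over both times, a comparison added after both had been seen, Hist1h2bb rose in HIRA livers by 1.94 ± 0.42 on the log2 scale and passed both limits (adjusted p = 0.0123, edgeR). It was 1 of 42 members called (2.85% of all genes passed the adjusted p and 0.468% both limits), and 6 of 42 had an unadjusted p under 0.05 (3 of the 28 that reached 10 counts with both guides), against 16.6% of all genes. The call rests on the tool: limma-voom gave an adjusted p of 0.161 and DESeq2 gave none for this gene. It held when any of the 20 libraries was left out (adjusted p from 0.000814 to 0.0262). The library without a count decided the calls at the single times: without HIRA 6 months replicate 3, the adjusted p was 0.0353 at 3 weeks and 0.0210 at 6 months, and without the library with male markers 0.171 and 0.142. Fitted on the 3-week libraries alone, the adjusted p at 3 weeks was 0.0199, where 175 of 22853 genes passed the adjusted p. On the 6-month libraries alone it was 0.355 at 6 months, where 0 of 22863 genes passed.

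Both other H2B members named for their p had few counts. Hist1h2bm reached 10 counts only through the HIRA libraries (26 counts against 3 in Rosa26), so the choice of members shaped its difference. Hist1h2bm had no count in the 5 Rosa26 livers at 3 weeks and 2, 0, 4, 7 and 1 counts in the HIRA livers. Set against a floor of 3 counts over the control group, it was 4.56-fold higher (unadjusted p = 0.00417, adjusted p = 0.242, edgeR). The floor covers the control side only, and 7 of the 14 HIRA counts came from replicate 4. At 6 months Hist1h2bm had 1, 2, 0, 0 and 0 counts in Rosa26 and 1, 4, 0, 3 and 4 counts in HIRA livers, a log2 fold change of 1.82 ± 1.02 (2.78 without Rosa26 6 months replicate 2). The averaged adjusted p was 0.0569 (edgeR). It ran from 0.0360 to 0.104 when each library was left out, and was under 0.05 without HIRA 3 weeks replicate 2, Rosa26 6 months replicate 2 or HIRA 6 months replicate 3.

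Hist1h2bf had 0, 0, 2, 1 and 0 counts in Rosa26 and 3, 5, 3, 4 and 1 in HIRA livers at 3 weeks, where the groups overlapped only by 1 HIRA liver. Its log2 fold change was 2.17 ± 0.79 (unadjusted p = 0.0117, adjusted p = 0.369, edgeR), and ran from 1.90 to 3.13 when each library was left out. At 6 months it had 3, 0, 1, 1 and 2 counts in Rosa26 and 4, 4, 4, 3 and 0 in HIRA livers, with a log2 fold change of 1.02 ± 0.69, and the liver at 0 was the one with male markers.

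**Figure D3:**
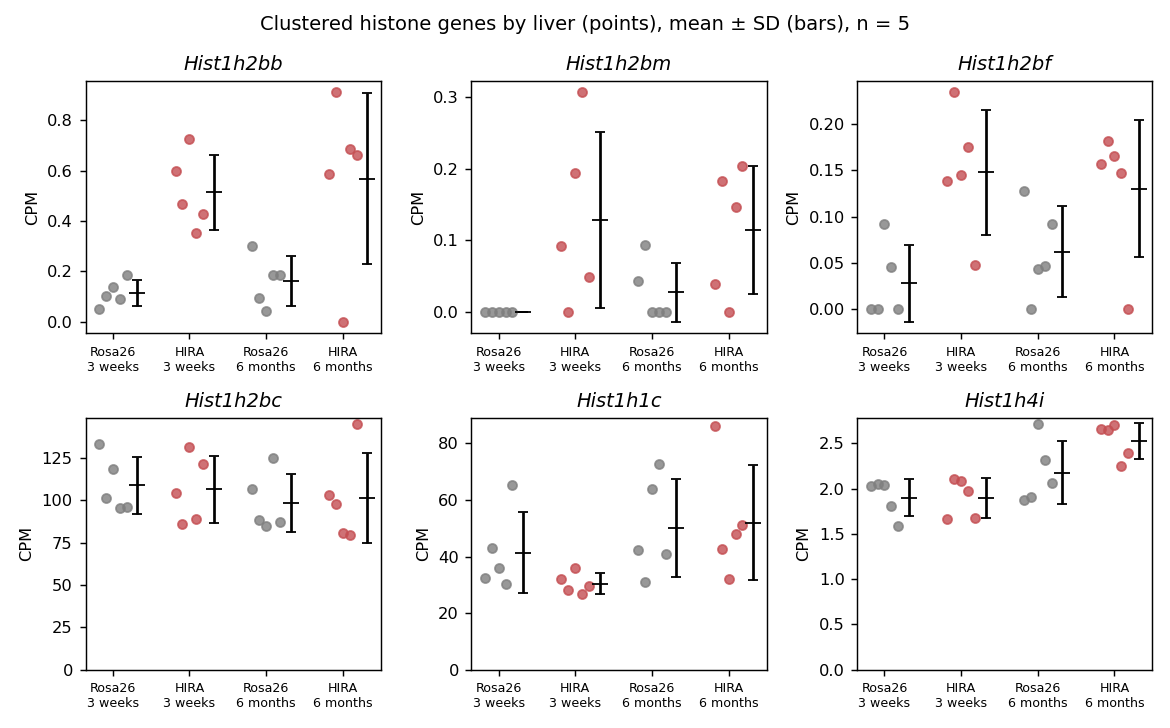
CPM of 6 members in each liver (points) of the 4 groups, Rosa26 in grey and HIRA in red, with mean and SD (bars, n = 5) and an own axis for each gene. Hist1h2bb is at 0.350 CPM or more in all 5 HIRA livers at 3 weeks and at most 0.186 CPM in the controls, while Hist1h2bc, Hist1h1c and Hist1h4i overlap between the guides at 3 weeks.

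Outside of H2B, Hist1h2ae, an H2A gene, had 4, 2, 1, 4 and 2 counts in Rosa26 and 5, 5, 5, 8 and 5 counts in HIRA livers at 3 weeks. Its log2 fold change was 1.03 ± 0.44 (adjusted p = 0.479, edgeR), and it was 0.14 ± 0.42 at 6 months. With Hist1h2bb it was 1 of 2 members whose HIRA livers were all above the controls at 3 weeks, where this held for 1.45% of all genes. No member was lower without overlap at 3 weeks (1.24% of all genes), and none was higher or lower without overlap at 6 months (1.41% and 1.74%).

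The H3 genes named by the same rule had a median of 1 count or less in every group. Both reached 10 counts only through the HIRA libraries (16 counts against 4 in Rosa26 for Hist1h3b, and 12 against 4 for Hist1h3c), so the choice of members shaped their differences as well. Hist1h3b had 0, 0, 1, 0 and 1 counts in Rosa26 and 1, 1, 6, 1 and 2 counts in HIRA livers at 3 weeks (log2 fold change 2.14 ± 0.87, adjusted p = 0.464, edgeR), and its fold change was 1.36 without HIRA 3 weeks replicate 3. Hist1h3c had 0, 0, 1, 0 and 0 counts in Rosa26 and 2, 0, 4, 1 and 1 counts in HIRA livers at 6 months (log2 fold change 2.38 ± 0.99, adjusted p = 0.242, edgeR), and its fold change was 3.73 without Rosa26 6 months replicate 3, the only control liver with a count. The remaining members with an unadjusted p under 0.05 at 3 weeks, named after their values were seen except Hist1h4k, were Hist1h4k (log2 fold change 1.65) and Hist1h4j (1.36), both H4 genes, and Hist2h2ac (-2.27), an H2A gene that reached 10 counts only through the Rosa26 libraries (12 counts against 3).

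Over all 42 members, 27 had a positive and 15 a negative log2 fold change at 3 weeks, with a median of 0.25 against -0.01 over all genes tested. At 6 months 23 were positive and 19 negative, with a median of 0.09 against 0.03. Over the 28 members that reached 10 counts with both guides, the medians were 0.23 (19 positive, 9 negative) and 0.02 (14 positive, 14 negative). By class, only members that reached 10 counts with both guides are compared. At 3 weeks, 2 of 3 H1, 2 of 3 H2A, 7 of 9 H2B, 2 of 3 H3 and 6 of 10 H4 members were positive (H2B median 0.21, H4 median 0.39). At 6 months these were 2 of 3, 2 of 3, 5 of 9, 0 of 3 and 5 of 10 (H2B median 0.04, H4 median 0.06). Over the 7 members with a mean of at least 0.5 CPM it was -0.03 at 3 weeks and -0.16 at 6 months. The summed CPM of all members overlapped between the guides at both times. It was 163 ± 17 in Rosa26 and 151 ± 23 in HIRA livers at 3 weeks and 163 ± 31 and 168 ± 35 at 6 months (SD, n = 5). Without Hist1h2bc and Hist1h1c, the sums were 12.9 ± 0.9, 14.2 ± 1.5, 14.7 ± 2.5 and 14.4 ± 2.7 CPM in the same order.

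**Figure D4:**
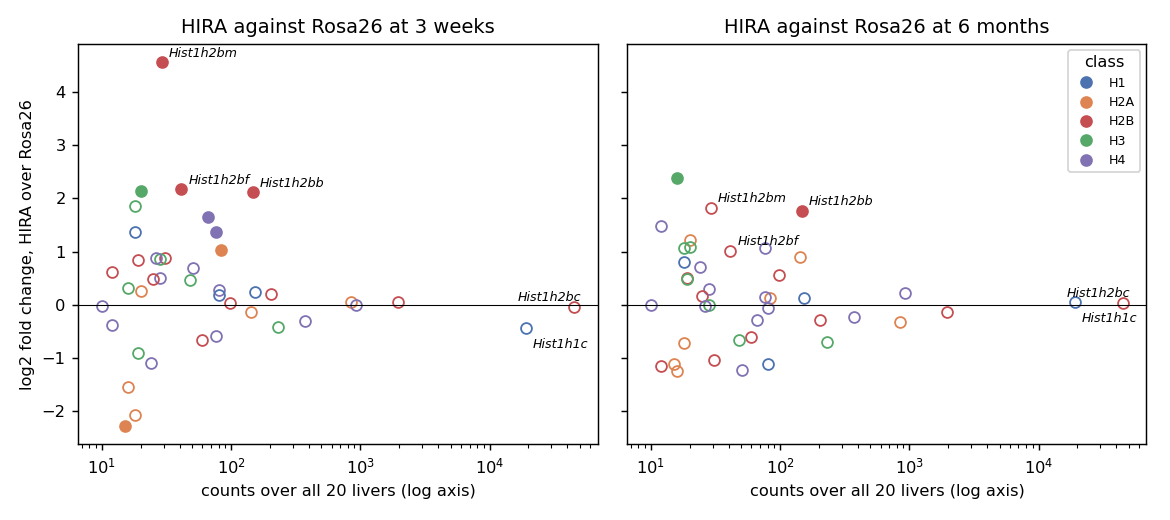
Log2 fold change of HIRA over Rosa26 livers for the 42 members, against their counts over all 20 livers (log axis), at 3 weeks (left) and 6 months (right). Filled points have an unadjusted p under 0.05 (8 and 2 members), none passes the adjusted threshold, and the spread narrows toward Hist1h2bc and Hist1h1c on the right.

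Split by annotated end, 5 of the 15 members that end within 100 bases of the stem-loop reached 10 counts with both guides, as did 20 of the 21 with a longer end, so the choice of members weighs on the first set and no medians of the full sets are compared. Over those 5, 4 log2 fold changes were positive and 1 negative at 3 weeks (median 0.88) and 2 positive and 3 negative at 6 months (median -0.03). Over the 20, 13 were positive and 7 negative at 3 weeks (median 0.20) and 11 positive and 9 negative at 6 months (median 0.09). Summed, the 15 members ranged from 1.02 to 2.31 CPM in Rosa26 and from 1.55 to 2.90 CPM in HIRA livers at 3 weeks, and from 1.03 to 2.08 and from 1.78 to 2.14 CPM at 6 months, so that the groups overlapped at both times. Without Hist1h2bb the sums were 1.44 ± 0.56, 1.67 ± 0.47, 1.34 ± 0.37 and 1.40 ± 0.41 CPM in the same order.

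Time after injection was compared within each guide. No member passed an adjusted p of 0.05 in edgeR, DESeq2 or limma-voom between 6 months and 3 weeks in Rosa26 livers (0.324% of all genes in edgeR, and 0.162% with the fold limit) or in HIRA livers (0.0656% and 0.0569%). At an unadjusted p under 0.05 there were 2 members in each, 4.76% against 12.8% of all genes in Rosa26 and 8.95% in HIRA livers. In Rosa26 livers these were Hist1h2be, an H2B gene, with 10, 4, 4, 5 and 8 counts at 3 weeks and 12, 13, 10, 17 and 23 counts at 6 months (log2 fold change 1.18 ± 0.38, adjusted p = 0.181, edgeR), and Hist1h2ac, an H2A gene, with a log2 fold change of -1.06 ± 0.45. Both were named after their values were seen, and Hist1h2be overlaps Hist1h1e on the same strand.

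In HIRA livers they were Hist1h1c and Hist1h4i. Hist1h1c had 696, 602, 741, 609 and 617 counts at 3 weeks and 2202, 941, 775, 983 and 1004 counts at 6 months, where the raw counts did not overlap but the CPM did (26.7 to 35.9 and 32.1 to 86.1). Its log2 fold change was 0.77 ± 0.25 (unadjusted p = 0.00548, adjusted p = 0.322, edgeR), and it was 0.28 ± 0.25 between the same times in Rosa26 livers. Hist1h4i, an H4 gene, had a mean of 1.90 ± 0.22 CPM at 3 weeks and 2.53 ± 0.20 CPM at 6 months (log2 fold change 0.41 ± 0.15, adjusted p = 0.386, edgeR). The median over members was 0.25 in Rosa26 livers (26 positive, 16 negative) and 0.00 in HIRA livers (21 positive, 21 negative).

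The change of the guide effect between times was called for no member and for no gene at all in edgeR (0% of all genes, with or without the fold limit), DESeq2 or limma-voom. At an unadjusted p under 0.05 it stood out for 2 members, both lower (4.76% against 6.62% of all genes). For Hist1h2bb the change was -0.35 ± 0.84 on the log2 scale (adjusted p = 0.975, edgeR), an error wide enough to hold a sizeable difference in either direction. All comparisons that use a group share its libraries, so they are not independent of each other.

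Genes that act on the clusters or alongside them were taken as fixed lists. Of 22 tested genes for transcription and 3′ processing of histone messages, none passed the adjusted p at either time, with medians of -0.02 and 0.06. Slbp had log2 fold changes of 0.00 ± 0.11 at 3 weeks and -0.04 ± 0.11 at 6 months. Npat ranged from 1.99 to 3.40 CPM in Rosa26 and from 3.87 to 4.32 CPM in HIRA livers at 6 months, with no overlap (log2 fold change 0.57 ± 0.16, adjusted p = 0.0853, edgeR). A higher level without overlap held for 1.41% of all genes at that time. At 3 weeks Npat overlapped between the guides (0.17 ± 0.16). Upf1, an RNA helicase of message decay and the most abundant gene of this list, had log2 fold changes of -0.04 and 0.15. Of 16 replication-coupled chaperone genes none passed at either time, and Rbbp4, a subunit of CAF-1 and the most abundant of them, was at -0.05 at both times.

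Of 32 genes for S phase and proliferation, none passed the adjusted p at 3 weeks (23 positive, median 0.17) and 1 did at 6 months (19 positive, median 0.07). Of all genes, 0.197% and 1.31% did. The gene called was Tk1, thymidine kinase, which was lower in HIRA than in Rosa26 livers (31.4 ± 6.6 against 48.5 ± 5.9 CPM, log2 fold change -0.63 ± 0.15, adjusted p = 0.0384, edgeR). It missed the fold limit. The call was lost without any 1 of Rosa26 6 months replicates 1, 3, 4 and 5 and HIRA 6 months replicates 1, 3 and 5 (adjusted p up to 0.0927, edgeR). Mki67, a proliferation marker, had log2 fold changes of 0.28 ± 0.46 and -0.46 ± 0.46, and Top2a, topoisomerase of dividing cells, 0.31 ± 0.40 and 0.00 ± 0.41. Ccnd1 (cyclin D1), the most abundant gene of the list, had 0.18 ± 0.44 and 0.55 ± 0.44.

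Among 12 tested replacement histone genes outside the clusters, H3f3a passed the adjusted p at both times (0.197% and 1.31% of all genes). It missed the fold limit. It had 70.9, 60.2, 60.7, 66.3 and 61.7 CPM in Rosa26 and 87.1, 79.3, 83.8, 82.5 and 84.4 CPM in HIRA livers at 3 weeks, and 64.5, 59.5, 59.2, 64.9 and 63.7 CPM against 78.8, 91.5, 73.3, 74.4 and 72.5 CPM at 6 months. All HIRA livers were above all controls at both times, which held for 1.45% of all genes at 3 weeks and 1.41% at 6 months. H3f3a rose by 0.38 ± 0.07 (adjusted p = 0.0309, edgeR) and 0.32 ± 0.07 (adjusted p = 0.0292, edgeR) on the log2 scale. The call at 3 weeks was lost without any 1 of Rosa26 3 weeks replicates 2, 3, 4 and 5 and HIRA 3 weeks replicates 1, 4 and 5 (adjusted p up to 0.103, edgeR). At 6 months it was lost without any 1 of Rosa26 6 months replicates 1, 2, 3 and 4 and HIRA 6 months replicates 1 and 2 (adjusted p up to 0.0710, edgeR). H3f3b, the other H3.3 gene, was not called (-0.11 ± 0.11 and -0.10 ± 0.11).

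Markers of other cells were summed in each liver, and none of them passed the adjusted p at a single time. The 12 lymphocyte markers summed to between 10.6 and 19.5 CPM in Rosa26 and between 17.8 and 27.9 CPM in HIRA livers at 3 weeks, and to between 11.8 and 41.0 and between 10.7 and 53.2 CPM at 6 months. Of these, 11 and 12 had positive log2 fold changes (medians 0.52 and 0.46). The 8 neutrophil markers were all negative at 3 weeks (median -2.31), with sums from 3.21 to 54.0 CPM in Rosa26 and from 2.39 to 5.67 CPM in HIRA livers, led by S100a9 (-1.91). At 6 months 7 of 8 were negative (median -0.75), with sums from 3.16 to 26.7 and from 1.78 to 7.16 CPM. Averaged over both times, Ngp and Elane, genes of neutrophil granules, fell in HIRA livers by 2.89 and 2.60 on the log2 scale (adjusted p = 0.0408 and 0.0494, edgeR). The calls held in 9 and 5 of 20 fits that left out 1 library, and losses came from libraries of both guides (adjusted p up to 0.148 and 0.113, edgeR). Rosa26 replicate 3 stood apart at both times, at 54.0 CPM where the other controls were at most 9.23, and at 26.7 CPM where they were at most 5.59. Without both of these libraries, left out after the data were seen, the averaged values were -0.77 and -1.57 (adjusted p = 0.243 and 0.154, edgeR). The 8 endothelial markers were all positive at both times (medians 0.16 and 0.33), and the 8 stellate cell markers had medians of 0.08 and 0.48. HIRA 6 months replicate 3, the library with no Hist1h2bb count, stood apart in the stellate sum at 778 CPM, where the other HIRA livers were at 203 to 364 CPM and the Rosa26 livers at 189 to 332 CPM. Medians were 0.10 and 0.18 for hepatocyte, -0.02 and 0.22 for cholangiocyte, 0.04 and -0.12 for Kupffer cell and macrophage and -0.01 and 0.01 for erythroid markers. In the Kupffer cell and macrophage sum at 6 months, Rosa26 replicate 3 stood apart at 1328 CPM (other controls 190 to 342) and HIRA replicate 4 at 809 CPM (other HIRA livers 119 to 377). The most abundant genes of these lists had log2 fold changes of 0.28 and 0.35 (Alb), 0.05 and 0.22 (Spp1), 0.18 and -0.39 (Clec4f), -0.08 and -0.08 (Hbb-bs), 0.17 and 0.39 (Dnase1l3) and 0.04 and 0.51 (Dcn). RNAs without a poly(A) tail, led by Rn7sk, summed to between 1.71 and 7.89 CPM in Rosa26 and between 1.75 and 3.28 CPM in HIRA livers at 3 weeks, and to between 3.37 and 5.51 and between 1.96 and 15.9 CPM at 6 months. The part of these markers in the values of Hist1h2bb and the other members was not tested.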

How the data were processed

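RNA-seq of mouse liver was measured in 20 samples, 5 mice in each of 4 groups, grouped by their titles. Reads were aligned by the authors to mm10 with STAR. The deposited gene table holds counts as integers that were not normalized. The tool that made them is given as HOMER in the methods and as HTSeq, beside Cufflinks, in the submitters' processing notes. Use of strand and treatment of reads with several matches are not given in the sources used here. The authors also deposited FPKM values, with 629498 blank cells. These served only as an alternative, as log2(FPKM + 1) in limma, a scale that understates changes of low genes.

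Members and gene lists were chosen with earlier results of these data known. As in the study, genes under 10 counts in total were left out (9700 with 1 to 9 counts and 22854 with none), and an adjusted p under 0.05 and an absolute log2 fold change above 1 were the limits. Groups were compared with edgeR 4.0.16 by quasi-likelihood (glmQLFit and glmQLFTest), using TMM factors and Benjamini-Hochberg adjustment over all 22867 genes, with a mean for each group over all 20 libraries. Adjusted p-values are from it unless another tool is named. SE is the absolute log2 fold change divided by the root of F. Alternatives were DESeq2 1.42.0, limma 3.58.1 (voom), RLE size factors, other filters, FPKM, a replicate block, and leaving out each library. The fit was tested on simulated data.

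Named members were those past the adjusted p, the 10 with the highest level per length, the most counted of each class and, per guide comparison, up to 5 with the smallest unadjusted p under 0.05. The averaged guide effect, and leaving out HIRA 6 months replicates 3 and 5 together, were added after the data were seen, as were leaving out both Rosa26 replicate 3 libraries and the split of members by counts within each guide. No replicates had counts that agreed within sampling noise. All 70 identifiers matched GENCODE M21 (GRCm38, the assembly of mm10), from which coordinates, exon unions and transcripts were taken. Promoters are from RefSeq (GRCm38.p6). A count of 0 allows up to 3 counts, which covers counting error only. Other tools were R 4.3.3, Python 3.11.15, pandas 2.3.3, numpy 2.4.6 and matplotlib 3.10.9. One gene that the rule for the lists would name is not reported here.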

Additional observations from a re-analysis of the deposited data

Results flagged for a closer look

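In 7 of 59 groups of 5 livers tested over the 15 named members, 1 liver lay far from the other 4, by a gap over 0.71 of the group's range. For continuous values chance gives such a gap in about 5% of groups. Whole counts this low pass the limit more easily, since 1 count in a group of zeros is enough, so the number of such groups is not compared with that share. Hist1h2ae was at 0.350 CPM in HIRA 3 weeks replicate 4, with the next liver at 0.242. Hist1h3b was at 0.290 CPM in HIRA 3 weeks replicate 3, with the next at 0.095. Hist1h4h was at 1.34 CPM in HIRA 3 weeks replicate 1, with the next at 0.774. Hist3h2a was at 1.53 CPM in HIRA 3 weeks replicate 5, below the next at 1.98. Hist1h3c was at 0 CPM in HIRA 3 weeks replicate 2 and at 0.043 CPM in Rosa26 6 months replicate 3, where the other 4 livers had no count. Hist1h2bf was at 0 CPM in HIRA 6 months replicate 5, the library with male markers, with the next liver at 0.147. Except for Hist1h4h and Hist3h2a, these values rest on 8 counts or fewer.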

How the results depend on the processing

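Most values kept their direction and their side of the threshold under the alternatives. The 10 members with the highest level per length were the same with the longest transcript in place of the exon union. The order of the 5 histone classes was the same by summed level as by the highest single member. At 3 weeks, 1 member passed both limits with the contrast's libraries alone, and 1 without both 6-month HIRA libraries that stand apart (replicates 3 and 5, left out after the data were seen), in each case Hist1h2bb, and 0 passed at 6 months with that contrast's libraries alone. Over all genes, 67 of 22853 passed both limits with the 3-week libraries alone and 0 of 22863 with the 6-month ones. With FPKM and blanks left out, 1 member (Hist1h2bm) passed the adjusted p alone at 3 weeks, where 38 of 20482 genes did. Hist1h2bm met the count limit only through the HIRA libraries (26 counts against 3 in Rosa26). The choice of members therefore shaped its difference, and its passing is not counted as a separate finding. At 6 months, 1 member passed without both libraries. When each library was left out in turn, 0 to 1 members passed at 3 weeks and 0 to 1 at 6 months, with the 1 found without HIRA 6 months replicate 3. For the averaged guide effect, 0 members passed with DESeq2, 0 with limma-voom and 0 with a filter at a mean of 0.5 CPM, which leaves Hist1h2bb out. With FPKM in either form, 2 passed the adjusted p (Hist1h2bb and Hist1h2bm). With blanks as 0, 578 of 22867 genes did. When each library was left out, 1 to 2 members passed, with Hist1h2bb in all 20 fits. Hist1h2bb was joined by Hist1h2bm in 3 and, without HIRA 6 months replicate 5, by Hist1h2bf. The limit given above for Hist1h2bm holds for these fits as well.

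The median log2 fold change over members became -0.025 at 3 weeks and -0.156 at 6 months with the mean CPM filter, which tests fewer members. With FPKM it was 0.051 (blanks as 0) and 0.037 (blanks left out) at 3 weeks, and 0.037 and 0.038 for time in Rosa26 livers. For the change of the guide effect it was 0.057 with the mean CPM filter and -0.058 and -0.072 with FPKM. Leaving out each library moved it from 0.11 to 0.418 at 3 weeks, from -0.025 to 0.239 at 6 months, from 0.149 to 0.37 for time in Rosa26, from -0.047 to 0.126 for time in HIRA livers and from -0.389 to -0.058 for the change of the guide effect. The cause of these shifts was not tested.

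Log2 fold changes near 0 changed sign. Without both libraries these were Hist1h2bc (-0.076) and Hist2h2be (0.078) at 6 months and the change of the guide effect of Hist1h2bb (0.015). With FPKM and blanks as 0, Hist1h3c was at -0.015 at 3 weeks, and Hist1h4k was at 0.176 at 6 months with FPKM in either form. Hist1h4i at 3 weeks was at 0.003 with RLE size factors, 0.005 with DESeq2, 0.001 with limma-voom, 0.006 with the mean CPM filter and 0.010 with FPKM in either form. With each library left out, ranges that crossed 0 were -0.121 to 0.052 (Hist1h2bc), -0.259 to 0.213 (Hist1h2bg), -0.059 to 0.045 (Hist1h4i) and -0.054 to 0.183 (Hist2h2be) at 3 weeks. At 6 months they were -0.212 to 0.224 (Hist1h1c), -0.037 to 0.354 (Hist1h2ae), -0.123 to 0.142 (Hist1h2bc), -0.878 to 0.163 (Hist1h4k) and -0.259 to 0.024 (Hist2h2be). For the change of the guide effect of Hist1h2bb the range was -0.588 to 0.002.

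Whether replicate numbers mark pairs of samples was not settled. The correlation of same-numbered livers ran from -0.309 to 0.335 and was over 0.1 in 14 of 30 pairs. Between livers with different numbers it ran from -0.451 to 0.540. Livers numbered 3 reached 0.335 between the Rosa26 groups and 0.296 between the guides at 6 months, but 0.017 between the HIRA groups. With a replicate block, Hist1h2bb had an adjusted p of 0.0217 for the averaged guide effect, 0.225 at 3 weeks and 0.164 at 6 months (edgeR), and 0 members passed at either time. Depth limits most members: 31 of 42 had fewer than 100 counts over 20 livers.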
